A study of Mus musculus with 12 samples.

Results

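The 8 genes described here belong to the T helper 1 (Th1) program and were found by gene symbol among the 47643 genes of the table. They encode 3 transcription factors (Tbx21, the gene for T-bet, Eomes and Hlx), the cytokine interferon gamma (Ifng), the 2 chains of the IL-12 receptor (Il12rb1 and Il12rb2) and the 2 chains of the interferon gamma receptor (Ifngr1 and Ifngr2). The RNA came from splenic T cells of C57BL/6 mice, labelled as naive and CD4+, that were activated through CD3 and CD28 for 3 days, 500000 cells on plates coated with 2 μg/ml of either antibody. The 4 groups of 3 libraries were wild type (WT) cells with no added cytokine (Th0), WT cells with IL-6+TGF-β, WT cells with TNF+TGF-β, and cells of Tnfr2-/- mice with TNF+TGF-β. TGF-β was added at 2 ng/ml, and its partner, IL-6 or TNF, at 20 ng/ml. Tnfr2 is TNF receptor 2, whose gene is Tnfrsf1b. The labels give no age or sex, do not say which allele removes the receptor or whether it is removed in all cells, and do not tell whether triplicates are separate mice, separate cultures or repeats of one culture. What the p-values measure is thus the spread between these samples, and that spread may be technical. A Tnfr2-/- group without cytokines and a group with TGF-β alone were not analysed here, so the genotype and cytokine effects cannot be told apart in the comparison of Tnfr2-/- cells with Th0, nor the effects of IL-6 or TNF from those of TGF-β.

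T-bet is the transcription factor that defines Th1 cells. IL-12, made by antigen-presenting cells, acts through a receptor with the chains IL-12Rβ1 and IL-12Rβ2 and the factor STAT4 to raise interferon gamma, and interferon gamma acts through its own receptor to raise T-bet, which in turn favours the Ifng and Il12rb2 genes. TGF-β is known to hold back T-bet and Th1 differentiation, and T-bet opposes the Th2 factor GATA3.

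The values are FPKM, fragments scaled to transcript length and to the mapped fragments of the library, so levels can be set side by side between genes. Estimated depth was 16800000 to 23900000 fragments per library, at which 3 fragments on a transcript of 1 kilobase correspond to 0.126 to 0.179 FPKM (counting error only). Tnfrsf1b was 70.77 to 108.17 FPKM in the WT TNF+TGF-β libraries and 3.19 to 4.87 in the Tnfr2-/- libraries, a log2 difference of −4.11 (adjusted p = 1.17e-06). The markers did not match the CD4 label: Cd8a and Cd8b1 were both above Cd4 in 11 of 12 libraries, all but the Tnfr2-/- library numbered 4. Markers of B cells were present in every group, with a summed level of 8 markers between 255.73 and 1187.49 FPKM in WT libraries and between 1928.36 and 4320.9 in Tnfr2-/- libraries. The summed level of 6 NK cell markers was at most 3.47 FPKM in any library. In bulk samples such as these, fewer cells of a type and less RNA per cell cannot be told apart.

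Of the 8 genes, 7, without Il12rb1, were found in the RefSeq promoter table for GRCm38.p6. The windows of Tbx21, Ifng, Il12rb2 and Ifngr1 are shown because the first 3 are the genes of the T-bet and interferon gamma loop and the fourth encodes the chain that binds interferon gamma. Each covers the 250 bases before the start site, 5′ to 3′ on the gene's strand, and capitals mark the motifs searched on both strands. These were the T-box core GTGTGA, found in 12.3% of 32851 promoters of this length, the interferon gamma activated site TTCNNNGAA, found in 7.0%, and the short SMAD element CAGAC, found in 42.2%. The 3 motifs share no letters where they occur here. The Tbx21 window (chr11:97115332-97115581, minus strand) held none of them. The Ifng window (chr10:118440796-118441045, plus strand) held 1 interferon gamma activated site, starting 249 bases before the start. The Il12rb2 window (chr6:67376189-67376438, minus strand) held 1 T-box core 80 bases before the start and 1 interferon gamma activated site 123 bases before it. The Ifngr1 window (chr10:19591699-19591948, plus strand) held 1 SMAD element 249 bases before the start. Among the windows not printed, that of Hlx held 1 SMAD element, 148 bases before the start, and those of Eomes and Ifngr2 held none of the 3 motifs. A match is a description of these letters only, and says nothing of binding.
Tbx21: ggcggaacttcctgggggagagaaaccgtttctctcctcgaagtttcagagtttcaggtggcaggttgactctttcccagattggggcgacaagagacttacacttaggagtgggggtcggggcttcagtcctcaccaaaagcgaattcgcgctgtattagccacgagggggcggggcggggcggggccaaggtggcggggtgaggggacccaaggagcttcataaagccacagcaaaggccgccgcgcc
Ifng: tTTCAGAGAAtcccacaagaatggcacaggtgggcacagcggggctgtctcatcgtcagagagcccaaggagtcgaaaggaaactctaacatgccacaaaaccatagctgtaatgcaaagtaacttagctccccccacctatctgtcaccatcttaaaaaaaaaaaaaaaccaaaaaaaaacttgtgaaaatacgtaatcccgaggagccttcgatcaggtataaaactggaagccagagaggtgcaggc
Il12rb2: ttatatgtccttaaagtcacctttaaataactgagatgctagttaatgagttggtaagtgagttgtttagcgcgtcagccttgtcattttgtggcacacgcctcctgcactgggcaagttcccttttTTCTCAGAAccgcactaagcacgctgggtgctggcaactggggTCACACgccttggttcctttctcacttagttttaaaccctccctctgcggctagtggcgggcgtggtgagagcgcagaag
Ifngr1: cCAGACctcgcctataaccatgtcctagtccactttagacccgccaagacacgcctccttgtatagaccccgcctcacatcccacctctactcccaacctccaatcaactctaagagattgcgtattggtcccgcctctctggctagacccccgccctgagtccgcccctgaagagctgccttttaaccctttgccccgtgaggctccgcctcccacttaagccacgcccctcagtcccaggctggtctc

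Tbx21 (ENSMUSG00000001444.2, chromosome 11, 97098071 to 97115331, minus strand of GRCm38) fell with either cytokine pair and fell again in cells without TNF receptor 2. It was 46.34, 63.99 and 45.95 FPKM in the Th0 libraries. It was 11.08, 13.64 and 16.38 FPKM with IL-6+TGF-β. With TNF+TGF-β, WT cells had 8.5, 5.67 and 10.36 FPKM and Tnfr2-/- cells 0.71, 0.73 and 1.68. Every Th0 library was above every cytokine-treated one, and every Tnfr2-/- library was below every WT library, so that neither of these groups overlapped any other. The ratio of the group means was 6.37 between Th0 and TNF+TGF-β, 3.80 between Th0 and IL-6+TGF-β, and 7.86 between WT and Tnfr2-/- cells under TNF+TGF-β. Differences are given on the log2(FPKM + 1) scale, where changes of low genes come out too small. The difference was −2.55 ± 0.25 (SE) for TNF+TGF-β against Th0, with an adjusted p of 1.33e-05 in limma. For IL-6+TGF-β against Th0 it was −1.85 ± 0.25 (adjusted p = 0.000175), and for Tnfr2-/- against WT −2.17 ± 0.25 (adjusted p = 5.37e-05). The WT groups with TNF+TGF-β and IL-6+TGF-β did not overlap either, but the difference of −0.70 did not pass the test (adjusted p = 0.0937). Against Th0, the Tnfr2-/- cells stood at −4.72 ± 0.25 (adjusted p = 1.96e-07), and the ratio of the means was 50.1.

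The CD8 markers were lower and the B cell markers higher in the Tnfr2-/- libraries, where Tbx21 was lowest. Among these 3 libraries, that numbered 4 had the highest Tbx21, at 1.68 FPKM, with the lowest Cd8a and the highest B cell sum. Cd8a, which encodes a chain of the CD8 coreceptor, was 183.56, 147.99 and 188.55 FPKM in WT cells with TNF+TGF-β and 29.04, 27.8 and 8.54 in Tnfr2-/- cells. Cd4 was lower there as well, at 42.32, 79.6 and 52.7 FPKM in these WT cells and 17.63, 11.03 and 10.32 in Tnfr2-/- cells. Of 8 CD4 T cell markers, Cd4 and the CD3 chains among them, 3 were called lower in Tnfr2-/- cells and 1 higher. Both CD8 chains were called lower in Tnfr2-/- cells, all 8 B cell markers were called higher, and so were 4 of the 7 tested myeloid markers. The summed myeloid markers were 87.16 to 168.24 FPKM in the WT libraries with TNF+TGF-β. They were 1428.8, 1001.6 and 202.2 in the Tnfr2-/- libraries, the lowest in the library numbered 4. The part of these cells in the fall of Tbx21 was not tested. The summed CD3 chains (Cd3d, Cd3e and Cd3g), which mark T cells of all kinds, were 1259.4, 1384.6 and 1334.2 FPKM in WT and 1247.2, 1051.4 and 821.8 in Tnfr2-/- cells. After each library was divided by its summed CD3 chains, a choice made after the data were seen, the Tbx21 difference between Tnfr2-/- and WT cells was −1.92 (adjusted p = 0.000433). This scaling moved the median of all tested genes in that comparison by 0.32. Between Th0 and the WT cytokine groups the CD8 chains went the other way from Tbx21: their sum was 115.33 to 180.13 FPKM in Th0, 256.21 to 343.14 with IL-6+TGF-β and 307.35 to 357.92 with TNF+TGF-β.

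**Figure D1:**
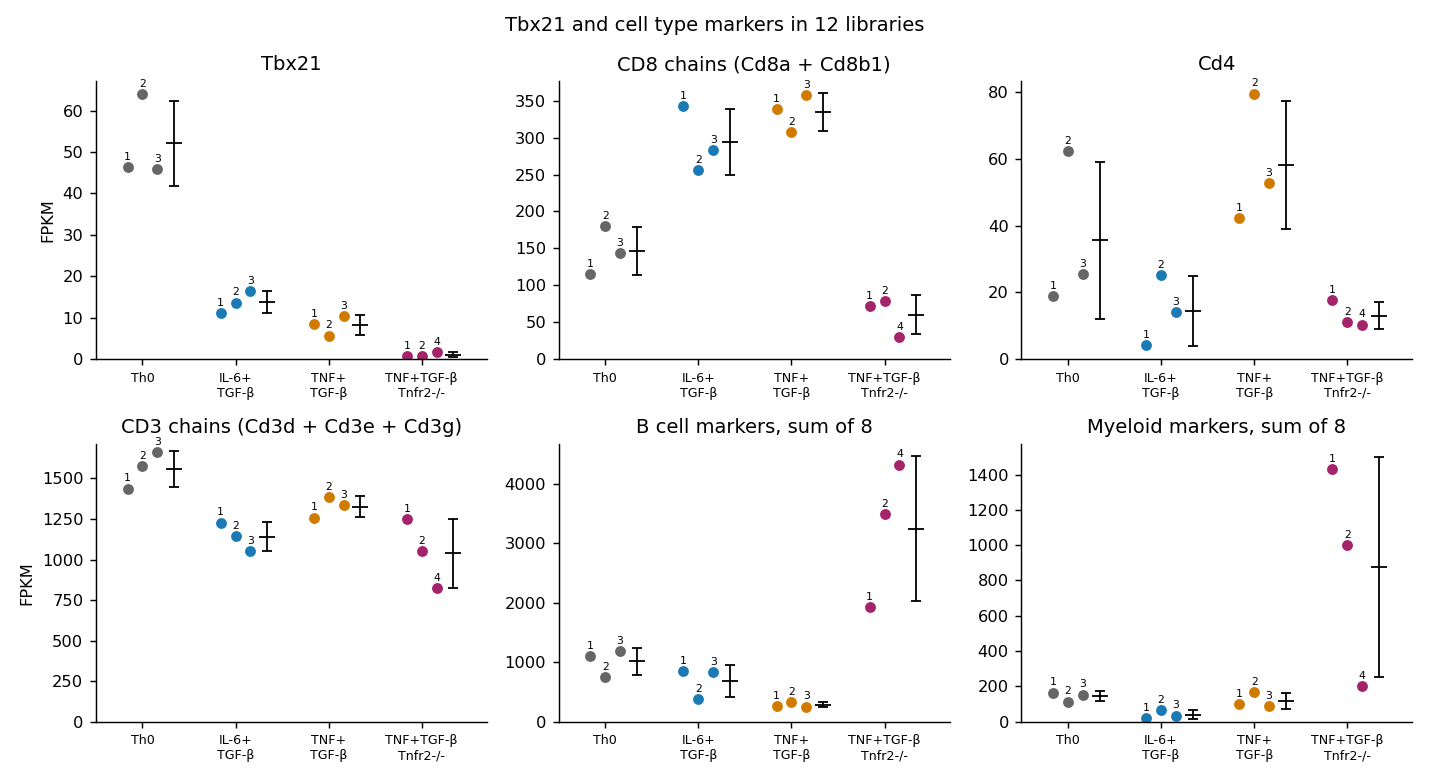
FPKM (linear axes from 0) of Tbx21, the summed CD8 chains, Cd4, the summed CD3 chains, 8 B cell markers and 8 myeloid markers in each library, with the library number above each point and the mean ± SD (n = 3) as a black bar beside each group. The Tnfr2-/- libraries are the lowest for Tbx21, at 0.71 to 1.68, and for the CD8 sum, and the highest for both sums of other cell types.

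Eomes (ENSMUSG00000032446.14, chromosome 9, 118478212 to 118486132, plus strand), a T-box factor related to T-bet and best known from CD8 T cells and NK cells, was low throughout and was lowest with IL-6+TGF-β. Its values were 2.26, 4.14 and 1.7 FPKM in Th0 and 0.22, 0.45 and 0.59 with IL-6+TGF-β. They were 1.82, 2.69 and 1.46 with TNF+TGF-β in WT cells and 1.46, 0.82 and 2.12 in Tnfr2-/- cells. The IL-6+TGF-β libraries lay below all the others, and the other 3 groups overlapped. Eomes fell with IL-6+TGF-β against Th0 (−1.34 ± 0.27, adjusted p = 0.00395), a ratio of means of 6.43. It was higher under TNF+TGF-β than under IL-6+TGF-β (1.06 ± 0.27, adjusted p = 0.0230), but this call was lost without IL-6+TGF-β replicate 1 (adjusted p = 0.0827) or 2 (0.0507) and without TNF+TGF-β replicate 1 (0.0623) or 2 (0.102). Neither TNF+TGF-β against Th0 (−0.27, adjusted p = 0.473) nor Tnfr2-/- against WT (−0.29, adjusted p = 0.430) passed the test. Tbx21 and Eomes thus had different low points, the former in Tnfr2-/- cells and the latter with IL-6+TGF-β. The annotation places an antisense gene over Eomes, and reads of the pair could not be told apart in libraries made without strand.

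Hlx (ENSMUSG00000039377.7, chromosome 1, 184727140 to 184732619, minus strand), a homeobox factor that acts with T-bet in Th1 cells, was near the lower limit of the tested range. It was 0.29, 1.04 and 0.57 FPKM in Th0, 0.28, 0.55 and 0.83 with IL-6+TGF-β, 0.62, 0.56 and 0.59 with TNF+TGF-β, and 1.17, 0.55 and 0.66 in Tnfr2-/- cells. All 4 groups overlapped. Hlx reached 1 FPKM in only 2 libraries and was left out of the main test by the filter of 1 FPKM in at least 3 libraries. With every gene above 0 tested, no Hlx difference passed, with adjusted p-values of 0.626 to 1 over the 5 comparisons.

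Ifng (ENSMUSG00000055170.3, chromosome 10, 118441046 to 118445892, plus strand), the main effector cytokine of Th1 cells, was lower with TNF+TGF-β but not with IL-6+TGF-β. It was 7.32, 27.74 and 17.28 FPKM in Th0 and 16.27, 10.9 and 20.17 with IL-6+TGF-β. It was 3, 1.68 and 6.77 FPKM in WT cells with TNF+TGF-β and 1.4, 2.22 and 3.78 in Tnfr2-/- cells with the same cytokines. Both TNF+TGF-β groups lay below both other groups, by a narrow margin between 6.77 in one TNF+TGF-β library and 7.32 in Th0 replicate 1. The spread in Th0 was wide, 17.5 ± 10.2 FPKM (SD, n = 3). The difference between TNF+TGF-β and Th0 was −1.90 ± 0.47 (SE; adjusted p = 0.00975), a ratio of means of 4.57. Without the libraries numbered 2 in every group, an alternative added after the data were seen, it was −1.15 and no longer called (adjusted p = 0.162). With IL-6+TGF-β the difference from Th0 was −0.00 ± 0.47 (adjusted p = 0.999), although Tbx21 fell there.

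The difference in Ifng between the 2 cytokine pairs was itself tested and was −1.90 ± 0.47 (adjusted p = 0.0186), with the mean 4.13 times higher under IL-6+TGF-β. That call was lost without IL-6+TGF-β replicate 1 (adjusted p = 0.0573) or 3 (0.0722) and without TNF+TGF-β replicate 1 (0.0662) or 2 (0.0875). Between Tnfr2-/- and WT cells the Ifng difference of −0.39 ± 0.47 did not pass the test (adjusted p = 0.545), while Tbx21 in the same libraries fell by 2.17 on the log2 scale. Against Th0 the Tnfr2-/- cells had less Ifng (−2.30 ± 0.47, adjusted p = 0.00195), a ratio of means of 7.07. The markers of NK cells, another source of interferon gamma, summed to between 0 and 3.47 FPKM over the 12 libraries. Another annotated gene overlaps Ifng on the same strand and was not used here.

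Il12rb1 (ENSMUSG00000000791.8, chromosome 8, 70808449 to 70821424, plus strand) encodes the receptor chain shared by IL-12 and IL-23, and it fell in steps from Th0 to IL-6+TGF-β to TNF+TGF-β. It was 24.99, 29.2 and 29.68 FPKM in Th0 and 10.24, 15.07 and 11.85 with IL-6+TGF-β. It was 5.58, 3.59 and 6.88 FPKM with TNF+TGF-β in WT cells and 7.58, 2.8 and 6.38 in Tnfr2-/- cells. The 3 WT groups did not overlap, whereas the WT and Tnfr2-/- groups with TNF+TGF-β did. Against Th0 the difference was −2.22 ± 0.29 with TNF+TGF-β (adjusted p = 0.000142) and −1.13 ± 0.29 with IL-6+TGF-β (adjusted p = 0.0147), with ratios of means of 5.23 and 2.26. The second of these missed the threshold without Th0 replicate 3 (adjusted p = 0.0528) and after scaling to the CD3 chains (0.0957). The step between the cytokine pairs was −1.10 ± 0.29 (adjusted p = 0.0263) and was lost without IL-6+TGF-β replicate 2 (0.0853) or 3 (0.0648) and without TNF+TGF-β replicate 1 (0.0655) or 2 (0.117), and when values were rescaled to a fixed sum (0.0541). Tnfr2-/- and WT cells differed by 0.01 ± 0.29 (adjusted p = 0.992), so that Il12rb1, unlike Tbx21, had nearly the same mean in both, 5.59 and 5.35 FPKM. In Tnfr2-/- cells Il12rb1 was lower than in Th0 by a log2 difference of −2.21 ± 0.29 (adjusted p = 0.000104).

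Il12rb2 (ENSMUSG00000018341.12, chromosome 6, 67291318 to 67376188, minus strand) encodes the chain that makes the receptor specific for IL-12 and whose loss marks cells turned from the Th1 path. It was 0.45, 5.18 and 0.43 FPKM in Th0 and 0.58, 3.75 and 0.89 with IL-6+TGF-β. It was 0.22, 0.34 and 0.49 FPKM with TNF+TGF-β and 0.12, 0.06 and 0 in Tnfr2-/- cells. Only replicate 2 of Th0 and replicate 2 of IL-6+TGF-β were above 1 FPKM, and the Tnfr2-/- libraries were below all the others. Since 2 libraries reached 1 FPKM, the gene was not in the main test, and with every gene above 0 tested no difference passed (adjusted p-values of 0.167 to 1). The same Th0 replicate 2 was also the highest Th0 library for Tbx21, Eomes, Hlx, Ifng, Ifngr1 and Ifngr2, and for Cd4, at 62.42 FPKM against 18.88 and 25.46. Il12rb2 overlaps Serbp1, which lies on the opposite strand, and reads of the shared stretch could not be told apart, so the Il12rb2 values are uncertain. Serbp1 was 563.54, 563.32 and 604.12 FPKM in the 3 Th0 libraries and 533.95, 448.95 and 434.06 with IL-6+TGF-β. Its part in the Il12rb2 values was not tested.

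Both chains of the interferon gamma receptor rose where Tbx21 fell. Ifngr1 (ENSMUSG00000020009.12, chromosome 10, 19591949 to 19610229, plus strand), the chain that binds interferon gamma, was 38.51, 44.09 and 38.56 FPKM in Th0 and 100.77, 72.03 and 82.08 with IL-6+TGF-β. It was 67.06, 82.85 and 57.38 FPKM with TNF+TGF-β and 106.99, 124.03 and 116.18 in Tnfr2-/- cells. The Th0 libraries were the lowest and the Tnfr2-/- libraries the highest, without overlap with any other group, and the WT cytokine groups overlapped each other. Ifngr1 rose over Th0 with IL-6+TGF-β (1.04 ± 0.16, adjusted p = 0.000410) and with TNF+TGF-β (0.75 ± 0.16, adjusted p = 0.00359), and the cytokine pairs did not differ by the test (−0.30, adjusted p = 0.270). It was 1.68 times higher in Tnfr2-/- than in WT cells by the group means, a log2 difference of 0.75 ± 0.16 (adjusted p = 0.00301). Against Th0 the Tnfr2-/- cells stood at 1.5 ± 0.16 (adjusted p = 2.23e-05).

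Ifngr2 (ENSMUSG00000022965.7, chromosome 16, 91547072 to 91565623, plus strand), the signalling chain whose loss makes Th1 cells unresponsive to interferon gamma, followed the same order at a lower level. Its values were 9.84, 12.05 and 9.97 FPKM in Th0 and 20.7, 23.13 and 27.95 with IL-6+TGF-β. They were 23.94, 27.4 and 19.47 FPKM with TNF+TGF-β and 42.2, 45.26 and 52.81 in Tnfr2-/- cells. Again the Th0 group was lowest and the Tnfr2-/- group highest, with no overlap, and the WT cytokine groups overlapped. The rise over Th0 was 1.07 ± 0.16 with TNF+TGF-β (adjusted p = 0.000407) and 1.10 ± 0.16 with IL-6+TGF-β (adjusted p = 0.000388). Between the cytokine pairs the difference was −0.02 (adjusted p = 0.952). The mean in Tnfr2-/- cells was 1.98 times that in WT cells, a log2 difference of 0.96 ± 0.16 (adjusted p = 0.000776), and against Th0 the difference was 2.04 ± 0.16 (adjusted p = 3.34e-06).

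Both receptor chains are also made by B cells and myeloid cells, whose markers were higher in the Tnfr2-/- libraries as given above, and their part in the rise was not tested. Among the Tnfr2-/- libraries the summed B cell markers were 1928.4, 3486.7 and 4320.9 FPKM, and the summed myeloid markers 1428.8, 1001.6 and 202.2. Most of each myeloid sum was the single gene Lyz2, at 1310.05, 928.14 and 177.53 FPKM. In the same order Ifngr1 was 106.99, 124.03 and 116.18 FPKM and Ifngr2 was 42.2, 45.26 and 52.81, so that Ifngr2 had the order of the B cell sum and the reverse of the myeloid sum, and Ifngr1 had neither. Against Th0, 7 of 8 B cell markers were called lower under TNF+TGF-β in WT cells and 4 of 8 under IL-6+TGF-β. Of the 7 tested myeloid markers, 1 was called lower under TNF+TGF-β and 3 under IL-6+TGF-β. The myeloid sums of Th0 (113.66 to 165.36 FPKM) and WT TNF+TGF-β (87.16 to 168.24) overlapped. After scaling to the CD3 chains, the rise of Ifngr1 in Tnfr2-/- cells was 1.12 (adjusted p = 0.000803) and that of Ifngr2 was 1.33 (adjusted p = 0.000920). That scaling moved the median of all genes by 0.32, and says nothing of how much RNA of either chain came from B cells or myeloid cells.

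**Figure D2:**
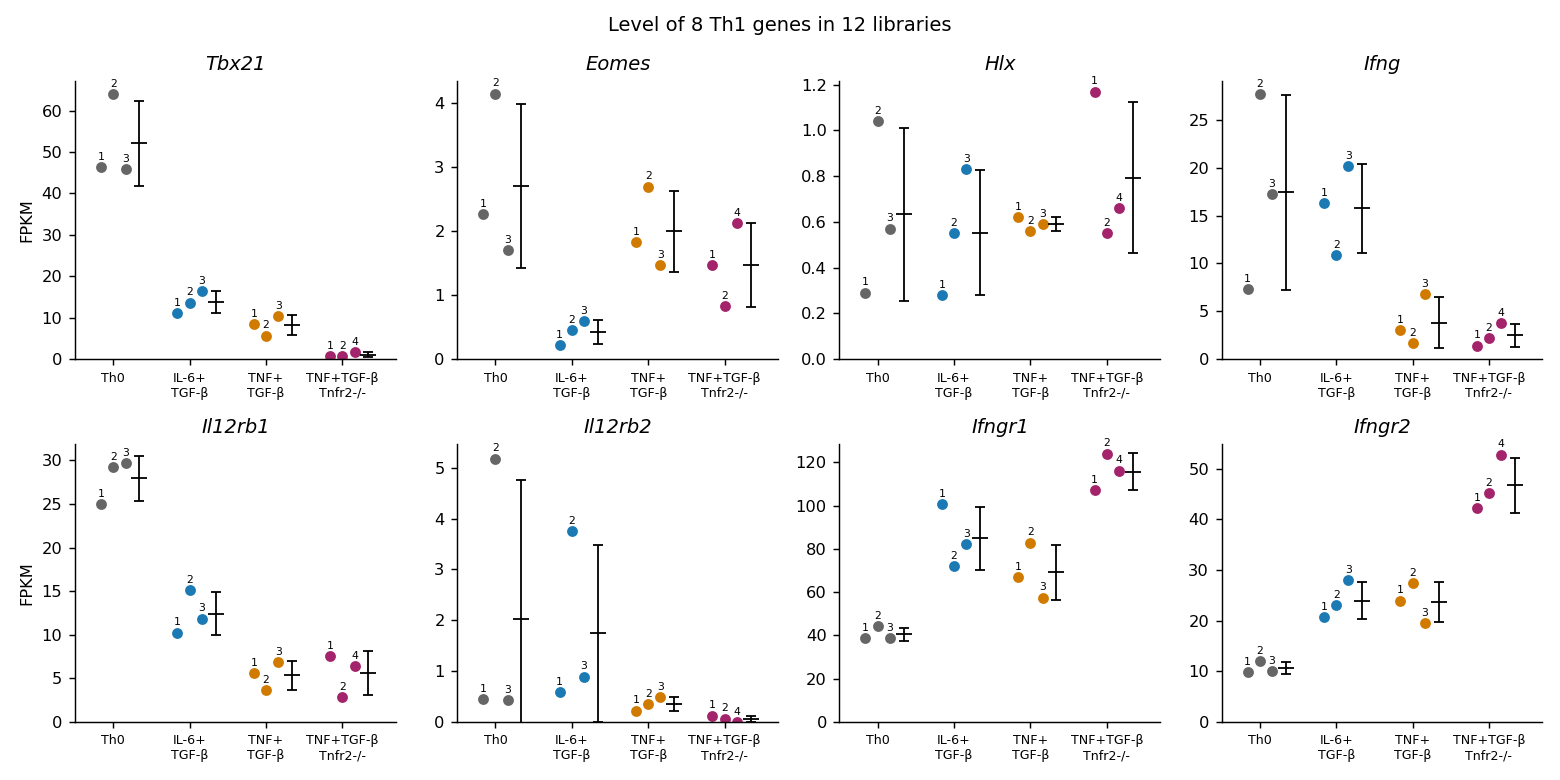
FPKM (linear axes from 0) of the 8 genes in each of the 12 libraries, with the library number above each point and the mean ± SD (n = 3) as a black bar beside each group, cut at 0 where the SD exceeds the mean. Tbx21 and Il12rb1 are highest in Th0, Ifngr1 and Ifngr2 are lowest there and highest in Tnfr2-/- cells, and the Il12rb2 values above 1 are both from libraries numbered 2.

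The order of the levels turned over between Th0 and Tnfr2-/- cells. In Th0, Tbx21 led at 52.1 ± 10.3 FPKM (SD, n = 3), above Ifngr1 at 40.4 ± 3.21 and Il12rb1 at 28.0 ± 2.58, and the libraries of these 3 genes did not overlap. Ifng at 17.5 ± 10.2 overlapped Il12rb1 above it and Ifngr2 below it, at 10.6 ± 1.24, and Eomes, Il12rb2 and Hlx were the lowest, with Il12rb2 overlapping both of the others. In Tnfr2-/- cells Ifngr1 led at 115.7 ± 8.53 FPKM, followed by Ifngr2 at 46.8 ± 5.46 and Il12rb1 at 5.59 ± 2.49. Ifng at 2.47 ± 1.21, Eomes at 1.47 ± 0.650, Tbx21 at 1.04 ± 0.554 and Hlx at 0.793 ± 0.331 came next, with every pair of neighbours from Il12rb1 to Hlx overlapping, and Il12rb2 was last at 0.06 ± 0.06, below every Hlx library.

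Of the 8 genes, 6, all but Hlx and Il12rb2, passed the filter and were tested among 13082 genes, with a call at an adjusted p under 0.05. With TNF+TGF-β against Th0, 2 rose and 3 fell, where 18.7% of all tested genes were called higher and 13% lower. The share of all genes called lower dropped when 1 library was left out, to 8.49% for Th0 replicate 1, 8.45% for Th0 replicate 3 and 8.42% for TNF+TGF-β replicate 2. With IL-6+TGF-β against Th0, 2 rose and 3 fell, against 14.1% higher and 9.15% lower, the latter 6.04% without Th0 replicate 3. Between TNF+TGF-β and IL-6+TGF-β in WT cells 1 was higher and 2 were lower, against 7.31% and 5.5%. Between Tnfr2-/- and WT cells 2 were higher and 1 was lower, against 19.9% and 17.5%. Between Tnfr2-/- cells and Th0, 2 were higher and 3 lower, against 29.0% and 19.1%. The median log2 difference of the 6 genes was −1.09, −0.56, −0.50, −0.14 and −1.39 in these 5 comparisons in turn, beside 0.07, 0.04, 0.00, 0.00 and 0.13 for all tested genes. The comparisons share libraries (Th0 enters 3 of them, and WT TNF+TGF-β another 3), so their counts are not independent. The balance of all calls depended on the scaling of the libraries: 58.9% of calls with TNF+TGF-β against Th0 were higher as deposited, 72.5% after rescaling to a fixed sum, 48.2% with median-ratio scaling and 42.4% with upper-quartile scaling. For IL-6+TGF-β against Th0 the share was 60.6% as deposited and 50.9% with upper-quartile scaling, for Tnfr2-/- against WT it was 53.2% and 42.5% after rescaling to a fixed sum, and for Tnfr2-/- against Th0 it was 60.4%, 49.1% with median-ratio and 45.5% with upper-quartile scaling. After scaling to the CD3 chains the share was 80.3%, 89.6%, 34.6%, 79.4% and 88.5% in the 5 comparisons in the order above, against 57.1% as deposited for the third. No call of the 6 genes changed direction under any of these scalings.

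**Figure D3:**
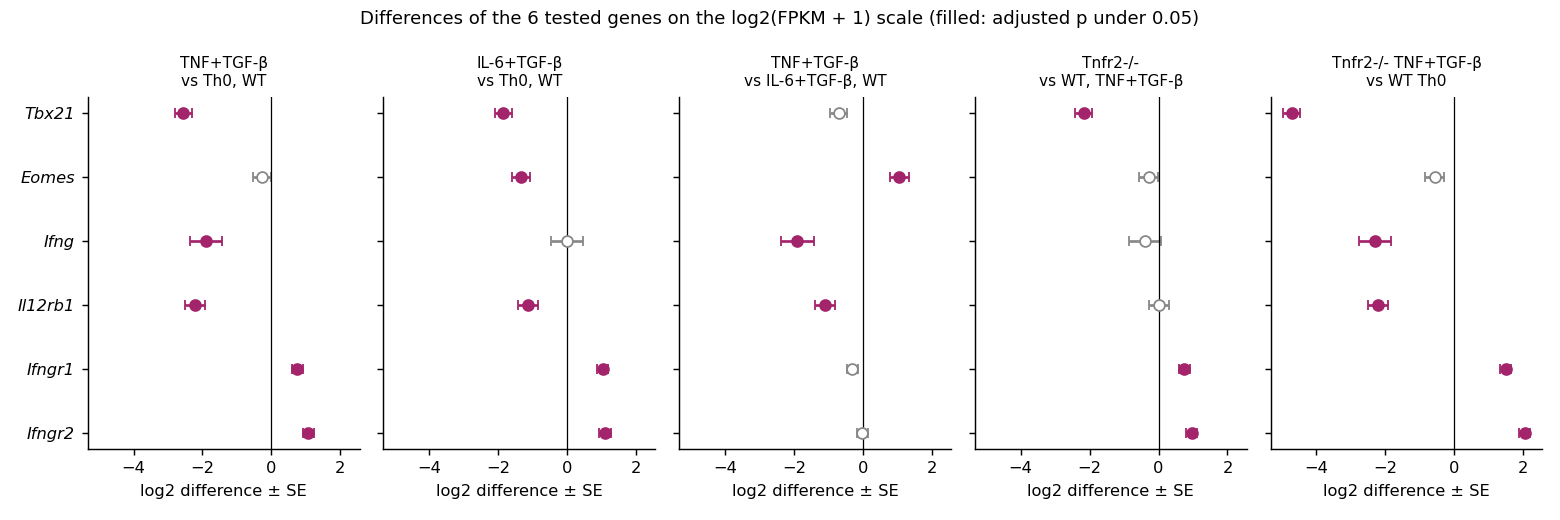
Log2 differences on the log2(FPKM + 1) scale (horizontal axis) with their SE for the 6 tested genes in the 5 comparisons, filled where the adjusted p was under 0.05. Tbx21, Ifngr1 and Ifngr2 have filled points in every panel but the middle one, with Tbx21 to the left of 0 and the receptor chains to the right.

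Most interferon gamma targets were lower with either cytokine pair than in Th0. Of 10 genes that interferon gamma is known to induce, 9 fell with TNF+TGF-β and 9 with IL-6+TGF-β, none rose, and the median log2 difference was −2.08 and −1.98. Iigp1, an interferon-induced GTPase of cell-autonomous defence, fell the most (−5.24 and −4.69, adjusted p = 8.87e-09 and 1.13e-08), followed by the chemokine gene Cxcl10 (−3.46 and −2.35, adjusted p = 8.47e-07 and 2.04e-05). The targets fell in both groups although Ifng itself was called lower only with TNF+TGF-β. Gbp2, a guanylate-binding protein, was 177.6 to 243.56 FPKM with IL-6+TGF-β and 34.3 to 48.86 with TNF+TGF-β, a difference of −2.24 (adjusted p = 3.76e-06), and it was 1 of 3 targets lower there, with Cxcl10 (−1.11, adjusted p = 0.00787). Without the libraries numbered 2 the Cxcl10 call was lost (adjusted p = 0.0851).

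Between Tnfr2-/- and WT cells the share of targets called was near that of all genes: 3 of 10 rose and 1 fell, where 19.9% of all tested genes were called higher and 17.5% lower. The count was 2 and 1 after rescaling to a fixed sum and with median-ratio or upper-quartile scaling, and the median was −0.09 (0.22 after scaling to the CD3 chains). Ciita, the master factor of MHC class II genes and also expressed by B cells without interferon, rose from 9.78 ± 2.21 FPKM in WT libraries (SD, n = 3) to 83.0 ± 17.2, with a log2 difference of 2.96 (adjusted p = 7.98e-06), beside the higher B cell markers. Gbp3 rose by a log2 difference of 0.77 (adjusted p = 0.000925), and Gbp2 fell to 14.71 to 19.34 FPKM (−1.30, adjusted p = 0.000131). Against Th0, 9 of 10 were lower in Tnfr2-/- cells and Ciita was higher (2.29, adjusted p = 2.68e-05), while Iigp1 (−5.45, adjusted p = 6.98e-09) and Gbp2 (−4.54, adjusted p = 1.05e-08) fell the most. In that comparison 29.0% of all tested genes were called higher and 19.1% lower.

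The signalling genes around the 2 receptors did not move as a block. Of 11 tested genes of 12, 6 rose and 5 fell with TNF+TGF-β against Th0, 1 rose and 3 fell with IL-6+TGF-β, and 3 rose and 6 fell in Tnfr2-/- against WT cells. After scaling to the CD3 chains these counts were 6 and 2, 3 and 1, and 3 and 2, so that the balance turned over in the last 2 comparisons. Of all tested genes, the shares called higher went from 18.7%, 14.1% and 19.9% to 23.9%, 33.1% and 33.1% with that scaling. The shares called lower went from 13%, 9.15% and 17.5% to 5.87%, 3.85% and 8.56%. The turnover thus cannot be told apart from a shift of all genes. The chains of the receptor for IL-18, a cytokine that acts with IL-12 on Ifng, were the largest rises with TNF+TGF-β: Il18rap was 2.98 to 3.81 FPKM in Th0 libraries, then 20.52 to 25.51 under TNF+TGF-β and 1.49 to 2.48 in Tnfr2-/- cells. It rose by 2.44 over Th0 (adjusted p = 8.35e-07) and 2.82 over IL-6+TGF-β (adjusted p = 5.57e-07), and fell by 3.03 in Tnfr2-/- cells (adjusted p = 5.80e-07). Il18r1 rose by 2.16 over Th0 (adjusted p = 3.67e-07) and 2.34 over IL-6+TGF-β (adjusted p = 4.40e-07). In Tnfr2-/- cells it was still above Th0 (1.41, adjusted p = 1.07e-05), whereas Il18rap was below it (−0.59, adjusted p = 0.0119). Both chains were thus high under TNF+TGF-β in WT cells, where Tbx21, Ifng and Il12rb1 were low.

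Stat4, which carries the IL-12 signal, was among the falls with IL-6+TGF-β (−1.11, adjusted p = 0.00336), as was the cytokine gene Il18 (−1.06, adjusted p = 0.0136). Both also fell with TNF+TGF-β against Th0 (−0.78, adjusted p = 0.0193, and −0.94, adjusted p = 0.0196). Neither differed by the test between the cytokine pairs (adjusted p = 0.404 and 0.831). The Il18 call with IL-6+TGF-β was lost without Th0 replicate 1 (0.0633) or the libraries numbered 2 (0.0839) and after scaling to the CD3 chains (0.0711). After that scaling, the fall of Stat4 with IL-6+TGF-β was −0.67 and not called (adjusted p = 0.0727). The kinase gene Jak1 rose against Th0 with TNF+TGF-β (0.69, adjusted p = 0.00452), with IL-6+TGF-β (0.75, adjusted p = 0.00337; 0.64 and 0.0656 without the libraries numbered 2) and in Tnfr2-/- cells against Th0 (1.37, adjusted p = 3.22e-05). Jak2, the kinase that binds both receptors, rose with TNF+TGF-β in WT cells over Th0 (1.88, adjusted p = 0.000163) and over IL-6+TGF-β (1.37, adjusted p = 0.00284). It was lower in Tnfr2-/- than in WT cells (−1.54, adjusted p = 0.000619). In Tnfr2-/- cells it did not differ by the test from Th0 (0.34, adjusted p = 0.280). Socs1, an inhibitor of interferon gamma signalling, fell between IL-6+TGF-β and TNF+TGF-β (−0.69, adjusted p = 0.00201) and between Th0 and Tnfr2-/- cells (−1.42, adjusted p = 5.41e-06). Il12a (1.56, adjusted p = 0.00293) and Il18 (1.59, adjusted p = 0.000802), cytokines made mainly by antigen-presenting cells, were higher in Tnfr2-/- than in WT cells, beside the higher B cell and myeloid markers. The fall of Il12a with TNF+TGF-β against Th0 (−1.01, adjusted p = 0.0325) was lost in 7 alternatives, among them each library left out except Th0 replicate 2.

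Among 14 factors that act with or against T-bet, 7 rose and 2 fell with TNF+TGF-β against Th0, 6 rose and 2 fell with IL-6+TGF-β, and 7 rose and 3 fell in Tnfr2-/- cells against Th0. Of all tested genes, 18.7%, 14.1% and 29.0% were called higher in these 3 comparisons in turn. The shares called lower were 13%, 9.15% and 19.1%, so the falls among the factors were near those of all genes. Foxp3, the regulatory T cell factor, rose in all 3 (4.32, 3.38 and 2.79, adjusted p = 1.47e-05, 0.000107 and 0.000277). Irf1, an interferon-induced factor that favours Th1 cells, fell in all 3 (−2.41, −2.05 and −2.0, adjusted p = 7.19e-06, 2.83e-05 and 3.01e-05), and so did Twist1, a factor that limits Th1 responses (−1.27, −1.69 and −1.69, adjusted p = 0.00182, 0.000262 and 0.000159). Gata3, the Th2 factor, was higher under TNF+TGF-β than under IL-6+TGF-β (3.75, adjusted p = 4.71e-06) and lower in Tnfr2-/- than in WT cells (−3.33, adjusted p = 1.22e-05). Its values were 71.99 to 100.4 FPKM in WT cells with TNF+TGF-β and at most 11.47 in any other library. Gata3 and Tbx21 were thus both lower in Tnfr2-/- cells. Batf was lower under TNF+TGF-β than under IL-6+TGF-β (−1.06, adjusted p = 0.00691), and its call was lost without the libraries numbered 2 (adjusted p = 0.0517).

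Between Tnfr2-/- and WT cells 3 of the 14 factors were higher and 5 lower, or 5 and 5 after scaling to the CD3 chains. Of all tested genes, 19.9% were called higher and 17.5% lower, or 33.1% and 8.56% after that scaling. Prdm1 (0.87, adjusted p = 0.00258) and Zeb2 (0.98, adjusted p = 0.0221) were higher, beside the higher B cell and myeloid markers, whose part was not tested. Prdm1 was low in both groups, at 0.2 to 0.22 FPKM in WT and 1.02 to 1.49 in Tnfr2-/- libraries. Foxp3 was lower (−1.52, adjusted p = 0.0152). The Foxp3 call was lost without TNF+TGF-β replicate 2 (adjusted p = 0.0512) or the Tnfr2-/- library numbered 4 (0.0630), and without the libraries numbered 2 (0.1504). The Zeb2 call was lost without TNF+TGF-β replicate 1 (0.0834) or the library numbered 4 (0.0709), without the libraries numbered 2 (0.111), with no filter on low values (0.0544) and in a fit of the 6 libraries alone (0.0616).

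Genes known as associated with T-bet or Th1 cells moved both ways. Of 16 tested genes of 17, 4 rose and 6 fell with TNF+TGF-β against Th0, 6 rose and 4 fell with IL-6+TGF-β, 2 rose and 7 fell between TNF+TGF-β and IL-6+TGF-β, and 1 rose and 6 fell in Tnfr2-/- against WT cells (3 and 4 after scaling to the CD3 chains). In these 4 comparisons in turn, 18.7%, 14.1%, 7.31% and 19.9% of all tested genes rose, and 13%, 9.15%, 5.5% and 17.5% fell. For the last, the shares were 33.1% and 8.56% after scaling to the CD3 chains. The rises in Tnfr2-/- against WT cells were thus below the share of all genes, with or without that scaling. Gzmb, the gene of the cytotoxic protease granzyme B, was 128.93, 618.09 and 205.37 FPKM in Th0, 32.4, 38.88 and 44.35 with IL-6+TGF-β, 0.79, 1.84 and 1.86 with TNF+TGF-β and 0.38, 0.37 and 0.11 in Tnfr2-/- cells. No neighbouring groups overlapped, and it fell by 6.71 with TNF+TGF-β (adjusted p = 5.64e-07) and by 2.70 with IL-6+TGF-β (adjusted p = 0.000716), with a difference of −7.64 in Tnfr2-/- cells against Th0 (adjusted p = 2.79e-07). Between the cytokine pairs Gzmb differed by −4.01 (adjusted p = 6.01e-05) and Prf1, the gene of the pore protein perforin, by −2.32 (adjusted p = 0.000456). Spp1, which encodes osteopontin, fell with TNF+TGF-β (−2.65, adjusted p = 3.59e-05).

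Some other genes of this group rose where Tbx21 fell, while Ccl5 and Fasl did not rise over Th0 in WT cells. Ctsw, which encodes cathepsin W, rose over Th0 in all 3 cytokine-treated groups (2.93 with TNF+TGF-β, 3.20 with IL-6+TGF-β and 2.56 in Tnfr2-/- cells, adjusted p = 1.69e-07, 8.22e-08 and 6.97e-07). Il2rb, a chain of the receptors for IL-2 and IL-15, did so as well (2.16, 1.87 and 1.33, adjusted p = 0.000123, 0.000390 and 0.00214). Ccl5, a chemokine gene, fell against Th0 with IL-6+TGF-β (−2.72, adjusted p = 2.59e-05) and with TNF+TGF-β (−1.15, adjusted p = 0.0095). It was higher under TNF+TGF-β than under IL-6+TGF-β (1.56, adjusted p = 0.00272, but 0.0811 without the libraries numbered 2), and so was Fasl, the ligand of the death receptor Fas (1.77, adjusted p = 0.000847). Against Th0, Fasl fell with IL-6+TGF-β (−2.2, adjusted p = 9.28e-05) and was not called with TNF+TGF-β (−0.43, adjusted p = 0.2445). In Tnfr2-/- cells Ccl5 rose over WT (2.32, adjusted p = 8.48e-05), while the chemokine gene Ccl3 (−3.40, adjusted p = 6.29e-05) and Nkg7, a cytotoxic granule gene (−2.75, adjusted p = 0.000140), fell, beside the lower CD8 chains, whose part was not tested. Against Th0, Ccl3 was lower in Tnfr2-/- cells (−4.43, adjusted p = 7.85e-06).

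**Figure D4:**
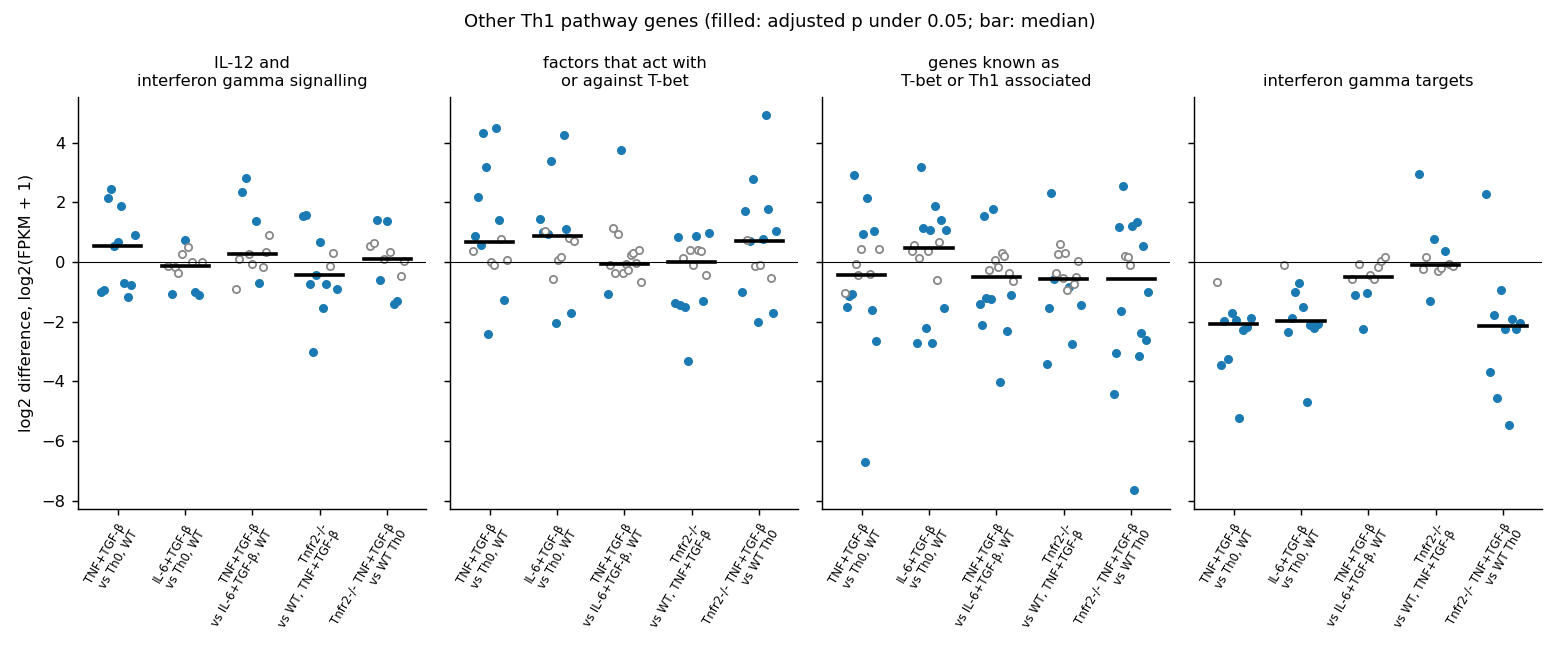
Log2 differences on the log2(FPKM + 1) scale (vertical axis) of the 51 tested genes of the Th1 pathway list in the 5 comparisons, in 4 groups of genes, filled where the adjusted p was under 0.05, with the median as a black bar. The interferon gamma targets lie below 0 against Th0, except Ciita at 2.29 in Tnfr2-/- cells, with medians of −2.08, −1.98 and −2.13, and the other 3 groups spread to both sides.

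The genes whose course over the 12 libraries was nearest to a given gene were found by the root mean square difference of log2(FPKM + 1) values, each gene centred on its own mean, among 9319 genes for Tbx21 and Ifng and 9320 for Eomes. These are descriptions without a test, and the libraries share their groups. Nearest to Tbx21, whose own SD was 1.71, were Gbp2 at 0.66, Cxcl10 at 0.82, Klrk1 at 0.85 and Serpine2 at 0.88. Klrk1, the gene of the activating receptor NKG2D, had group means of 21.5 FPKM in Th0, 21.1 with IL-6+TGF-β, 10.5 with TNF+TGF-β and 0.297 in Tnfr2-/- cells. Nearest to Ifng, whose own SD was 1.20, were Gstt1 at 0.55, Cenpv at 0.63, and Pkm and Mfsd2a at 0.70 each. Pkm, the gene of the glycolytic enzyme pyruvate kinase, had group means of 1530, 1342, 675 and 446 FPKM in the same order. Nearest to Eomes, whose own SD was 0.58, were Wipf1 at 0.25, Jade2 at 0.26 and Epsti1 at 0.31. Jade2 was 6.25 to 7.08 FPKM in Th0, 2.13 to 3.11 with IL-6+TGF-β and 6.32 to 6.72 with TNF+TGF-β in WT cells. In Tnfr2-/- cells it was 3.58 to 4.84, below Th0 and WT TNF+TGF-β without overlap, whereas the Eomes values of those groups overlapped.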

How the data were processed

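RNA of 12 libraries was sequenced after cDNA synthesis with a SMARTer kit and Nextera XT libraries, which do not mark strand, per the labels' protocols. Per the submitters' processing notes, mm10 was the genome and the tools were Trimmomatic, STAR 2.5.4 and RSEM 1.3.1. The annotation the authors used is not given in the sources used here. The authors deposited 1 value per gene and library, read as FPKM because the sums differed between libraries (689045 to 828161) and values times transcript length summed to between 900467 and 1010096. Coordinates are from GENCODE M21 (GRCm38), which held 99.1% of the gene identifiers. The Tnfr2-/- columns carry the numbers 1, 2 and 4, and the labels 1, 2 and 3. Depth was estimated from steps between low values of 8697 genes with a single transcript (800 to 3000 bases long, less 300; 78.1% to 89.3% of values within 0.2 of a whole multiple), and is approximate.

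The filter kept 13082 genes, those that reached 1 FPKM in 3 or more libraries. Their log2(FPKM + 1) values were fitted in limma 3.58.1 (R 4.3.3), all 12 libraries together, 1 mean for each group, and a variance prior following the mean level, a fit also tested on simulated data. P-values were adjusted by Benjamini-Hochberg over all tested genes within each of 5 comparisons, and a call is an adjusted p under 0.05. From the pathway list, the 2 largest called rises and falls per subgroup and comparison are named, and for 3 genes the 4 nearest courses. Some genes that these rules name are not reported here. Predicted genes, immune receptor segments and genes with a highest group mean under 5 FPKM were left out of the latter. Genes outside these rules were chosen after their values were seen. The genes and lists were chosen with earlier results of these data known. Alternatives were other pseudocounts, filters and scalings, fits on the compared libraries alone, a replicate block and leaving out each library.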

Additional observations from a re-analysis of the deposited data

How the results depend on the processing

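Of 5 comparisons, the number of Th1 genes called held at 5 in Tnfr2-/- cells against Th0 and at 3 in Tnfr2-/- against WT cells under all 18 alternatives. Between TNF+TGF-β and IL-6+TGF-β it went from 3 to 0 with no filter on low values and to 0 without the libraries numbered 2, and ranged from 0 to 3 when a library was left out. In that comparison the calls of Ifng, Eomes and Il12rb1 therefore rest on single libraries and on the number of genes tested (adjusted p = 0.0534, 0.0543 and 0.0617 with no filter). Tbx21, Ifngr1 and Ifngr2 kept their calls in the other 4 comparisons under all 18 alternatives, and no called direction reversed. Among all genes, leaving out the libraries numbered 2, an alternative chosen after the data were seen, gave 2008 calls in place of 4145 for TNF+TGF-β against Th0, 1495 in place of 3041 for IL-6+TGF-β against Th0, 874 in place of 1675 between the cytokine pairs and 2713 in place of 4898 for Tnfr2-/- against WT. Scaling to the CD3 chains, also chosen later, gave 4828 for IL-6+TGF-β against Th0. The planned scalings moved the median of all tested genes by up to 0.16 upwards (fixed sum, TNF+TGF-β against Th0) and −0.17 downwards (upper quartile, Tnfr2-/- against Th0), and that to the CD3 chains by 0.18, 0.38, −0.18, 0.32 and 0.50 in the 5 comparisons in the order of the report. With a replicate block, Tnfr2-/- against WT gave 3247 calls, with the library numbered 4 left out of that fit, and in it Foxp3 (−0.97, adjusted p = 0.119) and Zeb2 (0.70, adjusted p = 0.0593) were not called. The labels do not say that equal numbers mark a shared mouse or day, and deviations from the group means correlated at −0.284 to 0.344 between libraries of the same number and at −0.34 to 0.292 between others, so the numbers were not taken to pair the libraries. Of 72 differences of pathway genes and Tnfrsf1b, 9 lost a call under at least 1 alternative. On a transcript of 1 kilobase, 3 fragments correspond to 0.126 to 0.179 FPKM, and on a longer transcript to less, in proportion to its length. The Il12rb2 transcripts average 2799 bases, and its values of 0 to 0.12 FPKM in Tnfr2-/- cells still rest on few fragments.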
